A study of Homo sapiens with 12 samples.

Results

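Replication-independent histone variants were followed across the 4 groups of the series through 7 genes chosen by name: H2AZ1, H2AZ2, H2AX, H3-3A, H3-3B, MACROH2A1 and H1-10. They are 7 of the 57773 gene identifiers in the deposited table, and all 7 passed the filter on low values. The RNA came from RPE1, an immortalised human cell line derived from retinal pigment epithelium. Cultures received siRNA against Anillin (ANLN), a scaffold protein of the contractile ring, or a non-targeting siRNA that the labels name Random. After 24 h of transfection with Lipofectamine RNAiMAX, living cells were stained with Hoechst 33342 (2 µg/mL, 60 min, 37 °C) and sorted by DNA content. This gave 3 libraries for each of 4 groups: the 2N and 4N cells of control cultures (control 2N and control 4N) and those of the knockdown (Anillin 2N and Anillin 4N). All 4 share the cell line, the transfection reagent and the stain. The title of the series describes the knockdown as a route to polyploid cells by failed cytokinesis. Within a group the libraries are labelled as biological replicates, but nothing ties them to separate cultures, so p-values measure the spread between these samples, which may be technical. Where 4 values follow one another for a gene, they are in the order control 2N, control 4N, Anillin 2N, Anillin 4N.

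Most histone protein is made in S phase from clustered, replication-dependent genes, whose messenger RNAs end in a stem-loop. Variant histones come from solitary genes, mostly with introns and polyadenylated messages, and can enter chromatin outside S phase. H2A.Z marks promoters and is exchanged by the SRCAP and EP400 complexes, H3.3 is placed by HIRA and by DAXX with ATRX, and H2AX is phosphorylated around DNA breaks. MacroH2A carries a large domain that can bind ADP-ribose, and H1 linker histones sit where DNA enters and leaves the nucleosome.

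Sequence upstream of the annotated starts is shown for 6 members, because H2AZ1, H2AZ2, H2AX and MACROH2A1 had like patterns across the libraries, and because H3-3A and H3-3B encode 1 protein from separate genes. Each line holds the 250 bases before a RefSeq start on GRCh38.p14, written 5′ to 3′ in the direction of transcription, with motif letters in capitals. The positions are chr4:99950276-99950525 (minus strand), chr7:44848088-44848337 (minus), chr11:119095466-119095715 (minus), chr5:135399232-135399481 and chr5:135399888-135400137 for the 2 annotated starts of MACROH2A1 (minus), chr17:75779780-75780029 (minus) and, for the first of 4 annotated starts of H3-3A, chr1:226061581-226061830 (plus).
H2AZ1: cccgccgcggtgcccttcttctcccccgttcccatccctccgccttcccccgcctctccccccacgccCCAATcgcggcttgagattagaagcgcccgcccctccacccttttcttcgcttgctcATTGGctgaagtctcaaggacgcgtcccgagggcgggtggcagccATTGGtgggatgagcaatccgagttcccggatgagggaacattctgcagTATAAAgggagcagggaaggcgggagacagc
H2AZ2: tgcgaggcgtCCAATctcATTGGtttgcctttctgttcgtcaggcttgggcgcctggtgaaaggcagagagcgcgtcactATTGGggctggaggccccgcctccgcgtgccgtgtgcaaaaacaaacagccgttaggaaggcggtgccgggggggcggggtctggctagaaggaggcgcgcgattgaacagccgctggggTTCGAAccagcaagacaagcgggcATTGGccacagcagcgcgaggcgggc
H2AX: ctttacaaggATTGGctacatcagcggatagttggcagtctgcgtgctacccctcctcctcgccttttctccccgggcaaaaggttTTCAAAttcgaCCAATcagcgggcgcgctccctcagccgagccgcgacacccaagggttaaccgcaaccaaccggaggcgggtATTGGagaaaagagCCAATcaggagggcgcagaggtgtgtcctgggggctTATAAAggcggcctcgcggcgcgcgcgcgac
MACROH2A1, first start: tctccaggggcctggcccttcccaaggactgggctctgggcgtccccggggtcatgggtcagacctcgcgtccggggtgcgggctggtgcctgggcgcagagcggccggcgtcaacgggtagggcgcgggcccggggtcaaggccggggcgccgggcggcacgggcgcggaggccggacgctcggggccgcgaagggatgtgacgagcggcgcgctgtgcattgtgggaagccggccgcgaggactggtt
MACROH2A1, second start: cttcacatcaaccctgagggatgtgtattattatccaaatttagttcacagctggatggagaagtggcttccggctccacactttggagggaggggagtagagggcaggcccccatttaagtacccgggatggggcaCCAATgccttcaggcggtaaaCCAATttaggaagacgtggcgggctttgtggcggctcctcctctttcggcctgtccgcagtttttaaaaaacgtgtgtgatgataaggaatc
H3-3B: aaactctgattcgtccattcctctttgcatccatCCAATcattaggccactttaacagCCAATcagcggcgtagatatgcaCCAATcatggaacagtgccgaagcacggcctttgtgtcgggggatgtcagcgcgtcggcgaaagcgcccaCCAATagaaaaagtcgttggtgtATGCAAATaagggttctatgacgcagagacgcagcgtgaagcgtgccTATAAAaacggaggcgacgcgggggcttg
H3-3A: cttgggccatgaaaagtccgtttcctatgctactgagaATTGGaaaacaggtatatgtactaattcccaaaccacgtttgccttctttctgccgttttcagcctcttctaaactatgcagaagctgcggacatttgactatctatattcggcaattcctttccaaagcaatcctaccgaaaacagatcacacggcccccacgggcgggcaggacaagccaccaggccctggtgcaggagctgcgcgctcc

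Motifs were searched on both strands of the window from 250 bases before to 50 bases after each start: the CCAAT box (CCAAT), which binds NF-Y; the cell cycle genes homology region or CHR (TTTGAA or TTCGAA), which binds MuvB complexes; the TATA box (TATAAA); the octamer (ATGCAAAT); and E2F letters (GGCGGGAA, TTTGGCGC or TTTCGCGC). All 7 members matched the promoter table, with 11 starts in all. The windows of H2AZ2, H2AX and H3-3B each held 4 CCAAT boxes and that of H2AZ1 held 3, where 3 or more occur in 3.26% of the 35116 windows of the same length and at least 1 in 34.6%. CHR letters stood at base -50 of H2AZ2, at -164 of H2AX on the opposite strand, and just past the start of H2AZ1, outside the printed bases. They occur in 16.4% of all windows, and together with a CCAAT box in 6.38%. H3-3B had the octamer at -76 (1.77% of windows) and no CHR letters. TATA letters stood at -31 in H2AZ1, H2AX and H1-10 and at -29 in H3-3B, against 11.5% of all windows. The 4 starts of H3-3A held at most 1 CCAAT box each, and its second start held E2F letters, which occur in 4.24% of windows. MACROH2A1 has 2 annotated starts, with CCAAT boxes only at the second, which had 2, and no CHR letters at either. Starts are numbered by chromosome position, so on the minus strand the second start of MACROH2A1 lies upstream of the first. The 29 matches did not overlap one another. They describe letters and say nothing of which factor is bound.

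**Figure D1:**
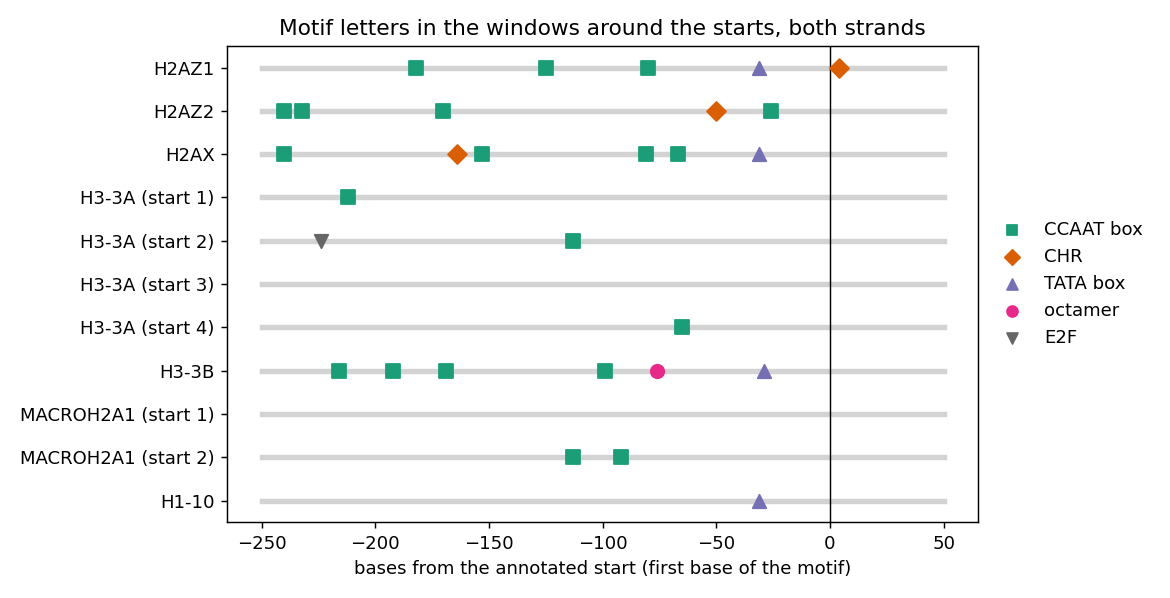
Motif letters in the 11 RefSeq windows of the 7 members. The x axis gives the distance in bases from the annotated start to the first base of the match, grey lines span the window, and each symbol is a match on either strand. H2AZ1, H2AZ2, H2AX and H3-3B each hold 3 or 4 CCAAT boxes, and no window of H3-3A holds more than 1.

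The recovered reads numbered 17412742 to 61760450 per library. ANLN lay at 1.25 to 1.88 RPKM in control 2N and 7.45 to 8.42 in control 4N, and at 0.0395 to 0.0989 in the 6 Anillin siRNA libraries. Summed over 16 genes of G2 and mitosis, levels were 43.4 to 65.8 RPKM in control 2N, 331 to 377 in control 4N, 15.9 to 17.3 in Anillin 2N and 51.5 to 56.0 in Anillin 4N. Sums over 15 G1/S genes ran in the same groups at 45.8 to 69.6, 99.0 to 125, 27.0 to 28.9 and 33.3 to 37.0, and sums over 8 p53 targets at 41.6 to 45.5, 44.2 to 51.5, 63.7 to 68.8 and 124 to 129. The ranges of these sums did not overlap between groups, except those of G2 and mitosis between control 2N and Anillin 4N and those of p53 targets between control 2N and control 4N. Their part in the results on the variants was not tested. Of 11 retinal pigment epithelium markers only KRT18, KRT8 and OTX2 passed the filter, with RPE65 at no more than 0.0625 RPKM and TYR at no more than 0.000388. Of 6 blood markers only CD68 passed, and of 6 markers of other epithelium and muscle none. That filter removes long genes most. On recovered reads, with at least 10 in at least 3 libraries, 9 of the 11 retinal pigment epithelium markers could be tested. So could 1 of the 6 blood markers and 1 of the 6 of other epithelium and muscle. In sorted bulk RNA, fewer cells that express a gene and less of its RNA per cell cannot be told apart. All levels are relative to the size of the library, so amounts per cell were not measured, and 2N and 4N cells may differ in total RNA. Replicate 2 of control 2N and replicate 2 of control 4N had the lowest H2AZ1, H2AX and H1-10 of their groups, so results are also given without both where they differ. That choice was made from values of these members, so calls gained by leaving these libraries out are not independent support.

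Within a library the 7 members took 0.111% to 0.130% of reads in genes in control 2N and 0.181% to 0.206% in control 4N. They took 0.108% to 0.115% in Anillin 2N and 0.128% to 0.130% in Anillin 4N. All 3 control 4N libraries thus stood above the other 9. The deposited RPKM (reads per kilobase of gene, scaled to the size of the library) divides by the whole span of a gene with its introns, so levels of different genes were compared per kilobase of exon. This takes all reads as exonic, which was not tested. It matters most where exons are a small part of the span. MACROH2A1 has 3019 exonic bases in 66015, and H2AX 1614 in 1614. Per kilobase of exon H2AZ1 was the most abundant member in every group, with means of 262, 585, 154 and 209. H3-3B was next, at 127, 176, 148 and 155, and the libraries of these neighbours overlapped in Anillin 2N only. In control 2N the order went on with MACROH2A1 (63.8), H3-3A (48.0), H2AZ2 (32.3), H2AX (28.1) and H1-10 (26.2), of which the last 3 overlapped between neighbours. In control 4N H2AX (100.03) came next after H3-3B and overlapped MACROH2A1 (80.6), and H2AZ2 (57.3), H3-3A (55.5) and H1-10 (50.5) overlapped between neighbours. In both Anillin groups H2AX was last, at 17.0 per kilobase of exon in 2N and 25.0 in 4N, below H2AZ2 (25.5 and 30.5), H1-10 (28.7 and 38.0), MACROH2A1 (49.3 and 54.8) and H3-3A (56.7 and 58.5), with no overlap between neighbours.

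**Figure D2:**
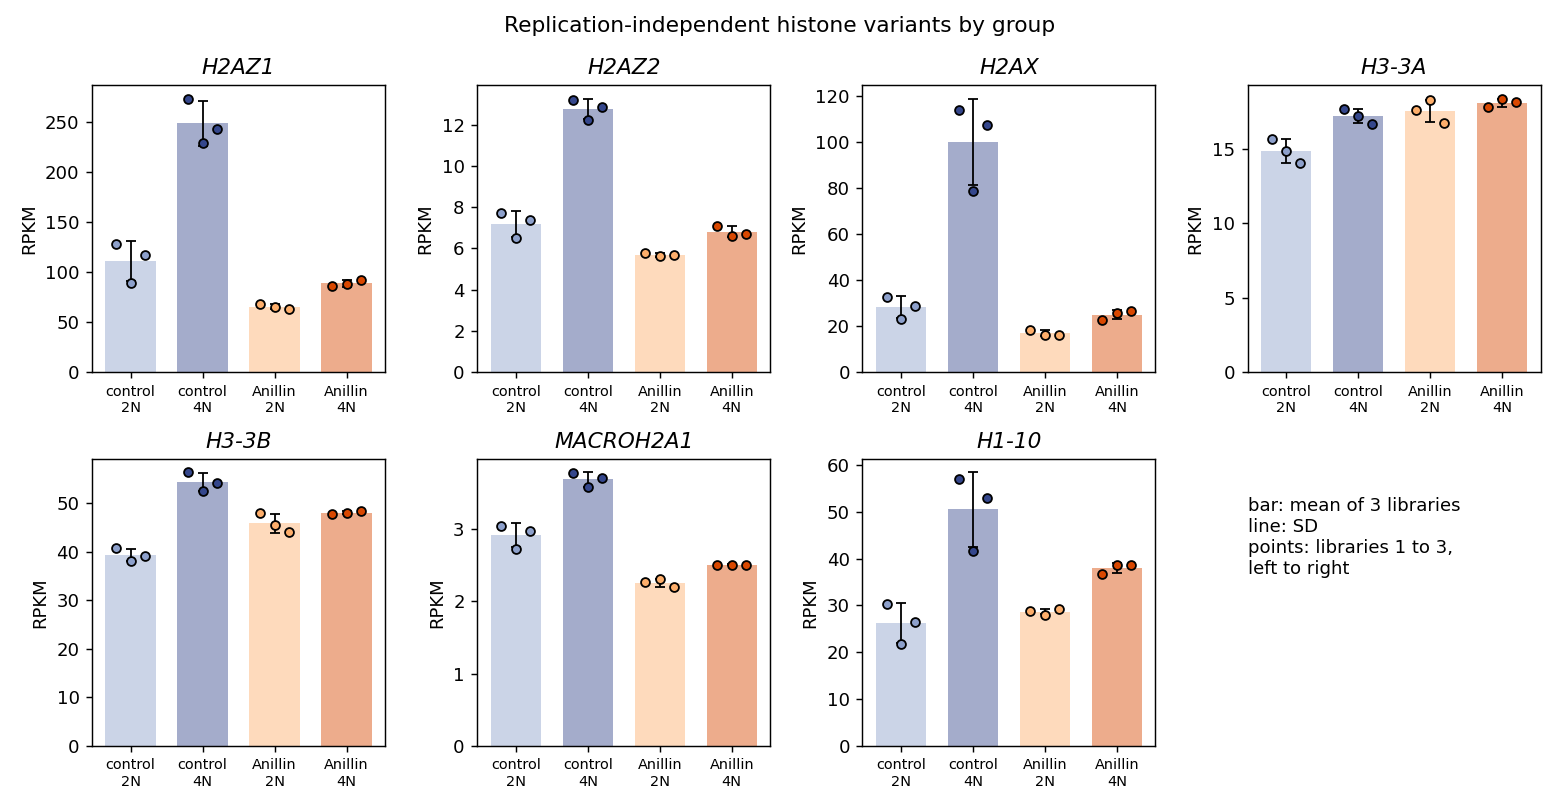
Level of each member in every library, in RPKM over the gene's span, on axes that start at 0 and differ between panels. Bars are means of 3 libraries, lines the SD and points the libraries; control 4N is the highest group for all members except H3-3A, whose 4N libraries stand at 16.7 to 17.7 RPKM in control and 17.9 to 18.4 after Anillin siRNA.

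H2AZ1 (ENSG00000164032, formerly H2AFZ) occupies 2303 bases of chromosome 4 on GRCh38 (99948086 to 99950388, minus strand). It encodes H2A.Z, and H2AZ2 encodes a closely related form of the same variant. The control 2N libraries held 127, 88.8 and 117 RPKM, and the control 4N libraries 273, 229 and 243. After Anillin siRNA it was 68.0, 65.0 and 63.2 RPKM in 2N and 85.6, 88.3 and 92.1 in 4N. Every control 4N library stood far above all others, and the Anillin 4N libraries spanned the lowest control 2N value.

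H2AZ2 (ENSG00000105968, formerly H2AFV) occupies 21293 bases of chromosome 7 (44826791 to 44848083, minus strand). Control 2N libraries held 7.71, 6.48 and 7.39 RPKM, and control 4N libraries 13.2, 12.2 and 12.9. The knockdown libraries held 5.79, 5.62 and 5.66 RPKM at 2N and 7.10, 6.61 and 6.69 at 4N. Control 4N again stood alone, and Anillin 4N overlapped control 2N.

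H2AX (ENSG00000188486, formerly H2AFX) is on chromosome 11 (119093854 to 119095467, minus strand), with 1614 exonic bases and no intron in the annotation. Its message is known in a stem-loop form and in a longer polyadenylated form, and the labels do not settle whether libraries were made from polyadenylated or ribo-depleted RNA. H2AX stood at 32.6, 23.1 and 28.8 RPKM in control 2N and at 114, 78.6 and 108 in control 4N. With Anillin siRNA it stood at 18.5, 16.2 and 16.3 RPKM in 2N cells and 22.7, 25.6 and 26.7 in 4N cells. The lowest control 4N library held more than the highest library of any other group, and Anillin 4N overlapped control 2N.

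H3-3A (ENSG00000163041, formerly H3F3A) occupies 10151 bases of chromosome 1 (226061851 to 226072001, plus strand). It encodes H3.3, the same protein as H3-3B. Control 2N libraries held 15.7, 14.9 and 14.1 RPKM of H3-3A, and control 4N libraries 17.7, 17.2 and 16.7. Values after the knockdown were 17.6, 18.3 and 16.8 RPKM at 2N, and 17.9, 18.4 and 18.1 at 4N. Control 2N was the low group, and the Anillin groups overlapped each other. Its reads are uncertain, because 6 annotated pseudogenes of H3-3A held 50133 reads over the 12 libraries, equal to 68.0% of the 73716 reads assigned to the gene itself. Of these, H3P6 held 43372 and H3P16 held 6141.

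H3-3B (ENSG00000132475, formerly H3F3B) occupies 9460 bases of chromosome 17 (75776434 to 75785893, minus strand). Control 2N libraries held 40.8, 38.1 and 39.0 RPKM of H3-3B, and control 4N libraries 56.3, 52.6 and 54.2. After the knockdown the libraries held 48.0, 45.4 and 44.1 RPKM at 2N and 47.8, 47.9 and 48.5 at 4N. Control 2N was lowest, control 4N highest, and the Anillin groups lay between them and overlapped each other. Pseudogenes of H3-3B held 1.41% as many reads as the gene. H3-5, an intronless gene on chromosome 12 that encodes the related H3.5, held 9.27% as many.

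MACROH2A1 (ENSG00000113648, formerly H2AFY) is on chromosome 5 (135333900 to 135399914, minus strand). Its span of 66015 bases, of which 3019 are exonic, places it low in RPKM. MACROH2A1 stood at 3.04, 2.73 and 2.97 RPKM in control 2N and at 3.78, 3.58 and 3.70 in control 4N. In Anillin 2N it was 2.26, 2.30 and 2.19 RPKM, and in Anillin 4N the mean was 2.50 ± 0.00599 (SD, n = 3). No 2 groups overlapped, with Anillin 2N lowest and control 4N highest.

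H1-10 (ENSG00000184897, formerly H1FX), a linker histone gene, is on chromosome 3 (129314771 to 129316277, minus strand), with no intron in the annotation. H1-10 stood at 30.4, 21.8 and 26.5 RPKM in control 2N and at 56.9, 41.7 and 53 in control 4N. After the knockdown the libraries held 28.8, 28.1 and 29.2 RPKM at 2N and 36.7, 38.6 and 38.8 at 4N. The 2N groups overlapped, and Anillin 4N lay between them and control 4N. Genes that overlap members on the opposite strand were low beside them. The most read antisense gene, H1-10-AS1, had 102 to 502 reads per library where H1-10 had 925 to 3480. UNK, which overlaps H3-3B, had 622 to 1954 reads. The sources used here do not say whether counting used strand.

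The comparison of control 4N with control 2N asked how cells in G2 and mitosis differ from mostly G1 cells in a culture that divides. All 7 members rose, where 23.9% of the 12892 genes tested rose and 37.1% changed. The median change of the members was 0.79 on the log2(RPKM + 0.5) scale, and that of all genes tested was 0.05. H2AX rose most, from 28.1 ± 4.80 to 100.03 ± 18.9 RPKM (SD, n = 3 and 3), a 3.56-fold ratio of means and a log2 change of 1.81 ± 0.15 (SE, limma adjusted p = 1.97e-05). H2AZ1 rose 2.24-fold (1.17 ± 0.12, adjusted p = 5.8e-05), H1-10 1.93-fold (0.93 ± 0.13, adjusted p = 0.000409) and H2AZ2 1.78-fold (0.79 ± 0.06, adjusted p = 7.64e-06). The smaller rises were those of H3-3B (0.46 ± 0.04, 1.38-fold), MACROH2A1 (0.29 ± 0.04, 1.26-fold) and H3-3A (0.20 ± 0.05, 1.16-fold, adjusted p = 0.0079). For all 7 every 4N library stood above every 2N library, and the share of all genes that separate so is not given here. With quantile scaling, which makes all libraries share 1 distribution, H3-3A was not called (0.04, adjusted p = 0.53) and the other 6 were. Under that scaling 46.0% of all calls were higher, and with median-of-ratios scaling 52.4%, against 64.4% as reported.

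The comparison of Anillin 4N with control 4N set cells with doubled DNA content after the knockdown against control cells of the same content. Of the 7 members 6 fell and none rose, where 31.5% of genes tested fell, 20.0% rose and 51.5% changed. The members' median was -0.48 and that of all genes -0.05. H2AX stood 4.00-fold lower (log2 change -1.96 ± 0.15, limma adjusted p = 5.14e-06), H2AZ1 2.80-fold lower (-1.48 ± 0.12, adjusted p = 5.42e-06) and H2AZ2 1.88-fold lower (-0.86 ± 0.06, adjusted p = 1.93e-06). MACROH2A1 fell 1.47-fold (-0.48 ± 0.04, adjusted p = 5.11e-06). H3-3B fell by less, from 54.4 ± 1.88 to 48.0 ± 0.368 RPKM (n = 3 and 3, -0.18 ± 0.04, adjusted p = 0.0064). H3-3A differed by 0.07 ± 0.05 (95% interval -0.03 to 0.18, adjusted p = 0.224), although its libraries did not overlap. H1-10 fell from 50.5 ± 7.93 to 38.0 ± 1.14 RPKM (n = 3 and 3, -0.39 ± 0.13, adjusted p = 0.0256).

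The calls of H1-10, H3-3A and H3-3B in this comparison depended on the setting. H1-10 was not called without the filter (adjusted p = 0.0615), with quantile scaling (0.0668), or without any 1 of the Anillin 4N libraries (0.0505 to 0.0712), control 4N replicate 1 (0.0992) or control 4N replicate 3 (0.0814). H3-3B was not called with quantile scaling (-0.05, adjusted p = 0.162), while H3-3A was called higher with that scaling (0.25, adjusted p = 0.00216) and with median-of-ratios scaling (0.14, adjusted p = 0.0339). Higher calls made up 38.9% of all calls as reported and 52.4% with quantile scaling.

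**Figure D3:**
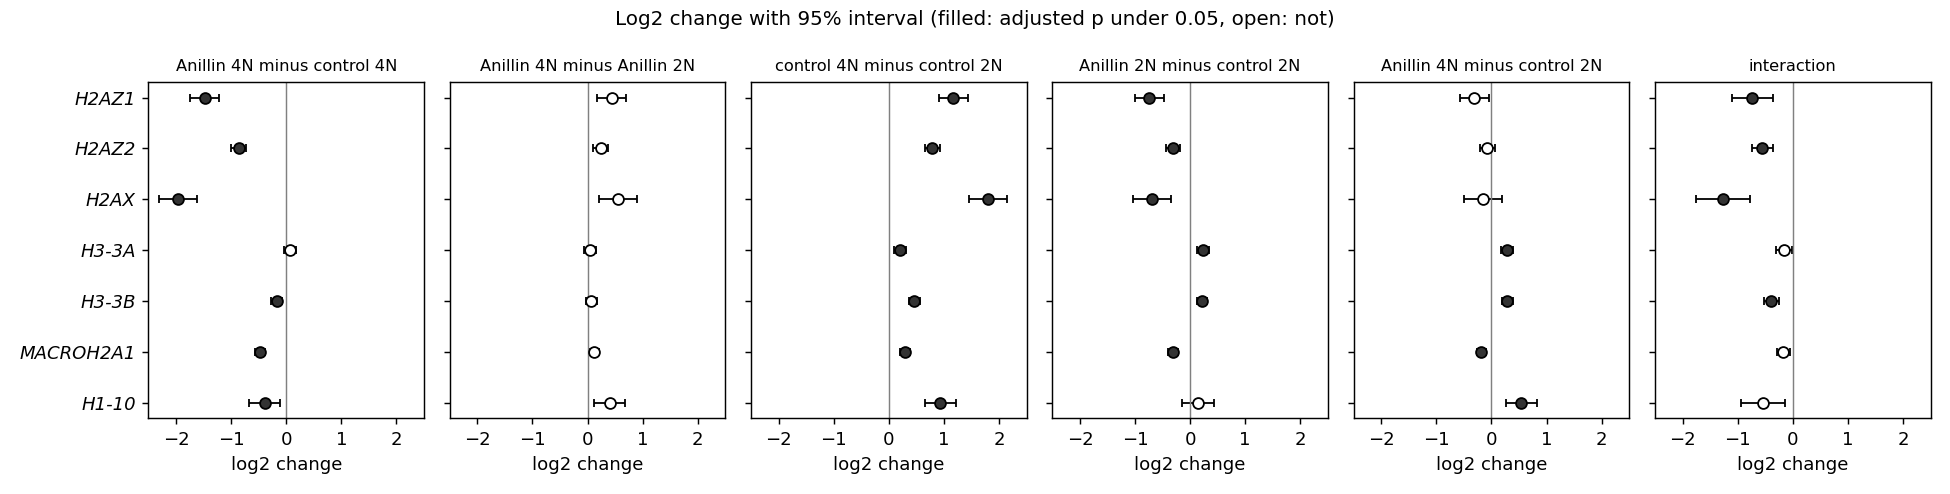
Log2 change of each member in the 6 contrasts, on the log2(RPKM + 0.5) scale. Points are estimates and lines 95% intervals, filled where the adjusted p is under 0.05; the interaction is the 4N minus 2N change after Anillin siRNA less that in control. The H2A.Z and H2AX genes have the widest spread, from 1.81 to -1.96 for H2AX, and H3-3A stays between -0.16 and 0.28.

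Between Anillin 4N and Anillin 2N, no member passed the threshold, where 3.58% of genes tested did (2.61% higher and 0.970% lower). Members with an unadjusted interval above 0 were H2AX (0.54 ± 0.15, 95% interval 0.20 to 0.89, limma adjusted p = 0.0968), H2AZ1 (0.44 ± 0.12, 0.17 to 0.70, adjusted p = 0.081), H1-10 (0.40 ± 0.13, 0.12 to 0.68, adjusted p = 0.138), H2AZ2 (0.24 ± 0.06, 0.11 to 0.37, adjusted p = 0.0616) and MACROH2A1 (0.13 ± 0.04, 0.04 to 0.21, adjusted p = 0.115). For these 5 every 4N library stood above every 2N library, but the share of all genes that separate so is not given here. H3-3A (0.05 ± 0.05) and H3-3B (0.07 ± 0.04) overlapped. With voom on recovered reads 4 members were called higher, H2AZ1 (0.44, adjusted p = 0.00714), H2AZ2 (0.26, 0.0132), H2AX (0.56, 0.0238) and H1-10 (0.41, 0.0297), against 4.09% of the genes tested that way. The 4 were also called when only these groups were fitted (adjusted p = 0.00828 to 0.044), where 316 of 11913 genes were called. Of all calls as reported 72.9% were higher, and 61.4% with quantile scaling.

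The comparison of Anillin 2N with control 2N gave changes in both directions. Of the H2A variant genes H2AZ1, H2AX, H2AZ2 and MACROH2A1 fell, MACROH2A2 rose (0.17 ± 0.04, limma adjusted p = 0.00719), and H2AJ did not pass (0.04, adjusted p = 0.75). H2AZ1 went from 111 ± 20.1 to 65.4 ± 2.42 RPKM (n = 3 and 3, log2 change -0.75 ± 0.12, limma adjusted p = 0.00138). H2AX fell by 0.70 ± 0.15 on the log2 scale (adjusted p = 0.00805), H2AZ2 by 0.31 ± 0.06 (adjusted p = 0.0038) and MACROH2A1 by 0.31 ± 0.04 (adjusted p = 0.000368). Both H3.3 genes rose, H3-3A from 14.9 ± 0.808 to 17.6 ± 0.763 RPKM (n = 3 and 3, 0.23 ± 0.05, adjusted p = 0.00552) and H3-3B from 39.3 ± 1.33 to 45.8 ± 2.02 RPKM (0.22 ± 0.04, adjusted p = 0.00465). H1-10 was at 0.14 ± 0.13 (95% interval -0.14 to 0.43, adjusted p = 0.457). Thus 4 members were lower and 2 higher, where 17.1% and 11.4% of genes were, and 28.6% changed. Of all calls 40.0% were higher, and 50.7% with quantile scaling.

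Relative to library size, Anillin 4N stood above control 2N in H3-3A (0.28 ± 0.05, limma adjusted p = 0.00196), H3-3B (0.29 ± 0.04, adjusted p = 0.000979) and H1-10 (0.54 ± 0.13, adjusted p = 0.0103). It stood below control 2N in MACROH2A1 (-0.18 ± 0.04, adjusted p = 0.00498). So 3 members rose and 1 fell, where 14.1% and 15.8% of genes tested did and 29.9% changed. H2AZ1 (-0.31 ± 0.12, 95% interval -0.57 to -0.05, adjusted p = 0.0744), H2AX (-0.16 ± 0.15, -0.50 to 0.19, adjusted p = 0.487) and H2AZ2 (-0.07 ± 0.06, -0.21 to 0.06, adjusted p = 0.384) overlapped between the groups. Without control 2N replicate 2, H2AZ1 (-0.46, adjusted p = 0.00212) and H2AZ2 (-0.14, 0.0422) were called lower, where 3757 of 12801 genes were called. Without replicate 2 of both control groups all 7 members were called, H2AX at -0.29 (adjusted p = 0.0463), where 3773 of 12541 genes were called. Both settings leave out libraries picked after the data had been seen for low H2AZ1, H2AX and H1-10. H2AZ1 was also called lower with median-of-ratios scaling (adjusted p = 0.0443), quantile scaling (0.0164) and voom (0.0177), which called 27.8% of the genes it tested.

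The interaction asked whether the step from 2N to 4N differed between the siRNAs. It was negative and past the threshold for 4 members, where 10.7% of genes tested were called negative, 4.93% positive and 15.7% in either direction. Negative calls were not particular to the variants: 14 of 16 genes of G2 and mitosis, 6 of 14 general histone chaperones and 4 of 9 high mobility group genes had them. None of those lists had a positive call. None of 11 replication-dependent histones was called, and 5 of 7 p53 targets were positive. H2AX rose by 1.81 ± 0.15 in control and differed by 0.54 ± 0.15 after Anillin siRNA, an interaction of -1.26 ± 0.22 (limma adjusted p = 0.00436). The interaction was -0.73 ± 0.17 for H2AZ1 (adjusted p = 0.0162), -0.55 ± 0.08 for H2AZ2 (adjusted p = 0.00216) and -0.39 ± 0.06 for H3-3B (adjusted p = 0.00239). It did not pass for H1-10 (-0.53 ± 0.18, adjusted p = 0.0743), MACROH2A1 (-0.17 ± 0.05, adjusted p = 0.0601) and H3-3A (-0.16 ± 0.07, adjusted p = 0.143). H1-10 passed with voom (-0.51, adjusted p = 0.0234, against 14.7% of genes), without control 2N replicate 1 (-0.64, 0.0348), without control 4N replicate 2 (-0.67, 0.0218) and without replicate 2 of both control groups (-0.54, 0.00835). MACROH2A1 passed without control 2N replicate 1 (-0.20, 0.0402) and without both replicates 2 (-0.15, 0.0496). Of all interaction calls 31.5% were positive, and 41.5% with quantile scaling. The contrasts above share libraries, so their values stand side by side and are not independent of one another.

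A ratio of paralogs within a library does not depend on the scaling between libraries. Its size per kilobase of exon again takes all reads as exonic, while its differences between groups do not depend on the lengths used. H2AZ1 stood above H2AZ2 per kilobase of exon by 8.67, 7.19 and 8.33 times in the control 2N libraries and by 10.9, 9.82 and 9.92 times in control 4N. With Anillin siRNA the factor was 6.16, 6.07 and 5.86 at 2N and 6.33, 7.01 and 7.22 at 4N. Control 4N libraries had the highest ratios and Anillin 2N libraries the lowest, with no overlap. The ratio of H3-3A to H3-3B was 0.384, 0.391 and 0.360 in control 2N, 0.313, 0.328 and 0.308 in control 4N, 0.367, 0.403 and 0.380 for the Anillin 2N libraries, and 0.373, 0.384 and 0.374 for those at 4N. The control 4N libraries were below all others, which overlapped among themselves. Between Anillin 4N and control 4N the log2 ratio differed by -0.57 for H2AZ1 to H2AZ2 and by 0.25 for H3-3A to H3-3B. Each gave p = 0.1 in a two-sided exact permutation test of 3 libraries against 3, the smallest p that this design allows, and 0.167 adjusted over the 10 ratio comparisons. So no ratio could pass the threshold.

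**Figure D4:**
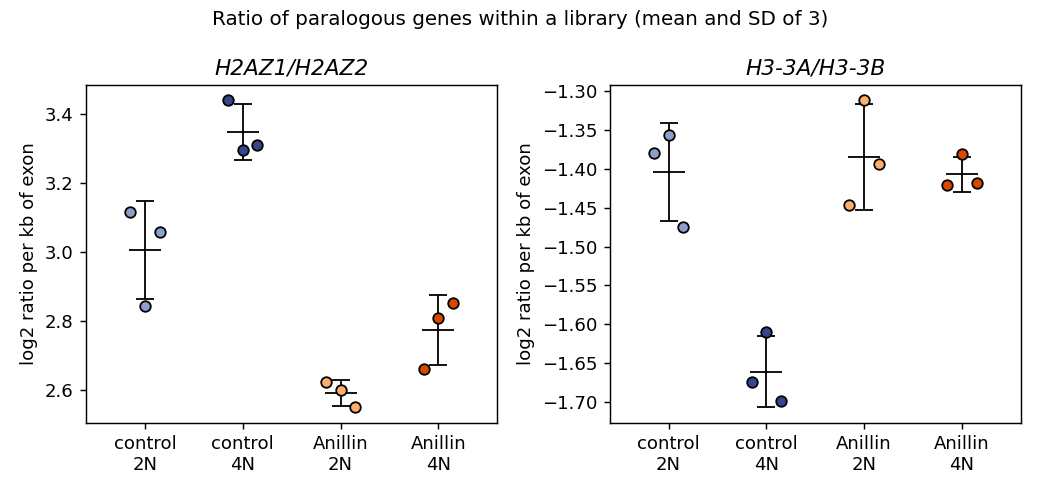
Log2 ratio of H2AZ1 to H2AZ2 (left) and of H3-3A to H3-3B (right) in each library, per kilobase of exon, with the mean and SD of 3 libraries. The axes do not start at 0. Control 4N has the highest mean H2AZ1 to H2AZ2 ratio (10.2) and the lowest mean H3-3A to H3-3B ratio (0.316).

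With the reads of near-identical copies added to each gene, H3-3A was at 24.9 ± 1.39, 29.3 ± 0.767, 29.6 ± 1.13 and 29.8 ± 0.397 RPKM (SD, n = 3 each). It then differed by 0.02 between Anillin 4N and control 4N (limma adjusted p = 0.697) and by 0.23 between control 4N and control 2N (adjusted p = 0.00395). No call of a member changed with the copies added, and the H3-3A to H3-3B ratio then differed by 0.20 between Anillin 4N and control 4N.

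Across the 12 libraries the log2 levels of H2AZ1, H2AZ2, H2AX and MACROH2A1 correlated with one another at Pearson r of 0.958 to 0.992. Such values did not set these members apart, since many other genes were closer to each. Of the 5371 genes compared, H2AZ2 ranked 21 in likeness to H2AX and 49 in likeness to H2AZ1. MACROH2A1 ranked 244 in likeness to H2AZ2 and 298 in likeness to H2AX. H3-3B correlated with H1-10 at 0.911 and with H3-3A at 0.706. H3-3A was at -0.24 with MACROH2A1, -0.11 with H2AZ1, and close to 0 with H2AZ2 (-0.015) and H2AX (-0.0013). The libraries share 4 groups, so these values describe group patterns and carry no test. Among 5371 genes with a symbol and a mean RPKM of at least 2, those near to H2AZ1 included STMN1 (r = 0.999), which encodes the microtubule destabiliser stathmin, and RNASEH2A (0.997), a subunit of ribonuclease H2. Nearest to H2AZ2 were HJURP (0.996), the chaperone of CENP-A, KIF23 (0.996), a kinesin of the central spindle, and the pseudogene UBE2SP1 (0.996). Nearest to H2AX were UBE2SP1 (0.998), the tubulin gene TUBB4B (0.996) and RANGAP1 (0.995), which activates the GTPase of Ran. MACROH2A1 was most like HMGN2 (0.999), RRM2 (0.998), a subunit of ribonucleotide reductase, and the pseudogene DHFRP1 (0.997). For H3-3A the nearest were ADO (0.918), its own pseudogene H3P16 (0.916) and PLEKHO1 (0.906). For H3-3B they were RETREG2 (0.971), ATP6V1B2 (0.968), a subunit of the vacuolar proton pump, and GTPBP2 (0.963), and for H1-10 SAC3D1 (0.983), ECI2 (0.974) and COX5A (0.969).

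A further 5 variant genes were tested. CENPA, the centromeric H3 variant, was at 0.671 ± 0.0852, 1.87 ± 0.146, 0.642 ± 0.0220 and 0.748 ± 0.0335 RPKM (SD, n = 3 each). It rose by 1.02 ± 0.06 in control 4N over 2N (limma adjusted p = 1.1e-06) and fell by 0.92 ± 0.06 in Anillin 4N against control 4N (adjusted p = 1.18e-06). H3-5 rose by 0.49 ± 0.05 and fell by 0.18 ± 0.05 in the same comparisons, beside 0.46 and -0.18 for H3-3B, whose coding sequence it resembles. With median-of-ratios or quantile scaling 1 of these 5 genes fell in Anillin 4N against control 4N, since H3-5 was not called. MACROH2A2, the paralog of MACROH2A1, was higher in Anillin 4N than in control 4N (0.30 ± 0.04, adjusted p = 6.75e-05), where MACROH2A1 fell. H2AJ, an H2A variant linked to senescent cells, did not pass in that comparison (0.06, limma adjusted p = 0.562). H1-7 and H1-8, germline linker histones, had 0 reads in all 12 libraries.

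The proteins that deposit or read these variants were followed with lists, whose counts stand beside 31.5% of all genes tested that fell and 20.0% that rose in Anillin 4N against control 4N, and 13.2% that fell and 23.9% that rose in control 4N against 2N. The medians of all genes were -0.05 and 0.05. Of 15 tested genes of H2A.Z exchange and reading, 11 fell and 2 rose in Anillin 4N against control 4N, with a median of -0.21. With median-of-ratios scaling 8 fell, and with quantile scaling 9. ANP32E, a chaperone that removes H2A.Z, fell by 1.35 ± 0.07 on the log2 scale (limma adjusted p = 3.06e-07) and RUVBL2, an ATPase of the exchange complexes, by 0.84 ± 0.11, while DMAP1 (0.16 ± 0.04) and ZNHIT1 (0.15 ± 0.05) rose. In control 4N against 2N, 8 rose and none fell (1 fell with median-of-ratios and 2 with quantile scaling), led by ANP32E (1.10 ± 0.07) and the bromodomain protein BRD8 (0.82 ± 0.04). ANP32E was also among the 2 of the 15 that rose from Anillin 2N to Anillin 4N, where 2.61% of all genes rose (0.31 ± 0.07, adjusted p = 0.0421), the other being BRD8 (0.21 ± 0.04, adjusted p = 0.013).

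Of 7 tested genes of H3.3 deposition and reading, 4 fell and 1 rose in Anillin 4N against control 4N (median -0.15), beside 31.5% and 20.0% of all genes. With median-of-ratios or quantile scaling 3 fell and 1 rose. DEK, a chromatin protein that acts with H3.3, fell by 1.20 ± 0.09 (limma adjusted p = 2.8e-06) and DAXX, the chaperone that works with ATRX, by 0.30 ± 0.05, while ATRX itself rose by 0.20 ± 0.05. In control 4N against 2N, DEK (0.74 ± 0.09) and ASF1A (0.37 ± 0.04) rose with 1 other, and ATRX fell by 0.16 ± 0.05. HIRA and UBN2 did not pass the filter. ATRX was not called in the control comparison with quantile scaling, and without replicate 2 of both control groups it did not pass the filter.

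Of 10 tested genes of H2AX phosphorylation and signalling, 6 fell and none rose in Anillin 4N against control 4N (median -0.32; 1 rose with either other scaling), beside 31.5% and 20.0% of all genes. BRCA1 was at -0.99 ± 0.07 (limma adjusted p = 1.75e-06) and PRKDC, which encodes the catalytic subunit of DNA-PK, at -0.62 ± 0.07. In control 4N against 2N, 7 rose, among them BRCA1 (0.55 ± 0.07) and the phosphatase subunit PPP2CA (0.49 ± 0.04), and TP53BP1 fell (-0.13 ± 0.03). With median-of-ratios scaling 5 rose there, with quantile scaling 6, and without replicate 2 of both control groups 4 of 9. All 3 tested genes of the list on macroH2A and poly(ADP-ribose) fell in Anillin 4N against control 4N, with PARP2 at -0.82 ± 0.05 and PARP1 at -0.56 ± 0.05. Of 14 general histone chaperones and their partners 12 fell and none rose there (median -0.62), with ASF1B at -1.68 ± 0.14 and MCM2 at -0.94 ± 0.13. With median-of-ratios scaling 11 fell and 1 rose, and with quantile scaling 10 fell and 1 rose. In control 4N against 2N, 8 of these chaperones rose and 1 fell.

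Replication-dependent histones and high mobility group genes gave the nearest comparison. Of 11 tested replication-dependent histone genes 7 rose and none fell in Anillin 4N against control 4N (median 0.39), beside 20.0% and 31.5% of all genes, with H2AC6 at 0.94 ± 0.12 (limma adjusted p = 0.000141) and the linker histone H1-2 at 0.66 ± 0.08. In control 4N against 2N 5 fell and none rose (median -0.26), led by H2BC21 (-0.89 ± 0.15) and H2AC6 (-0.64 ± 0.12), and 3 fell without replicate 2 of both control groups. The 7 variants had medians of -0.48 and 0.79 in these comparisons. The summed level of the 32 replication-dependent genes was 27.7 to 33.0 RPKM in control 2N, 22.4 to 25.3 in control 4N, 38.4 to 39.0 in Anillin 2N and 33.2 to 36.9 in Anillin 4N, so control 4N was the lowest group for these genes and the highest for 6 of the 7 variants. These levels are low: only 11 of the 32 genes passed the filter, and their sum stayed below H2AZ1 alone, at 63.2 to 273 RPKM. Messages without a poly(A) tail are counted according to the RNA selection, which the labels leave unsettled. Which form of these messages was counted was not tested, so the values may not describe the bulk of replication-dependent histone message. Of 9 high mobility group genes 6 fell and 1 rose in Anillin 4N against control 4N (median -0.54), with HMGB2 at -2.02 ± 0.11, HMGN2 at -1.42 ± 0.09 and HMGA2 at 0.51 ± 0.04, and 8 rose in control 4N against 2N (median 0.43). With quantile scaling 5 fell in the former, and with either other scaling 7 rose in the latter.

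**Figure D5:**
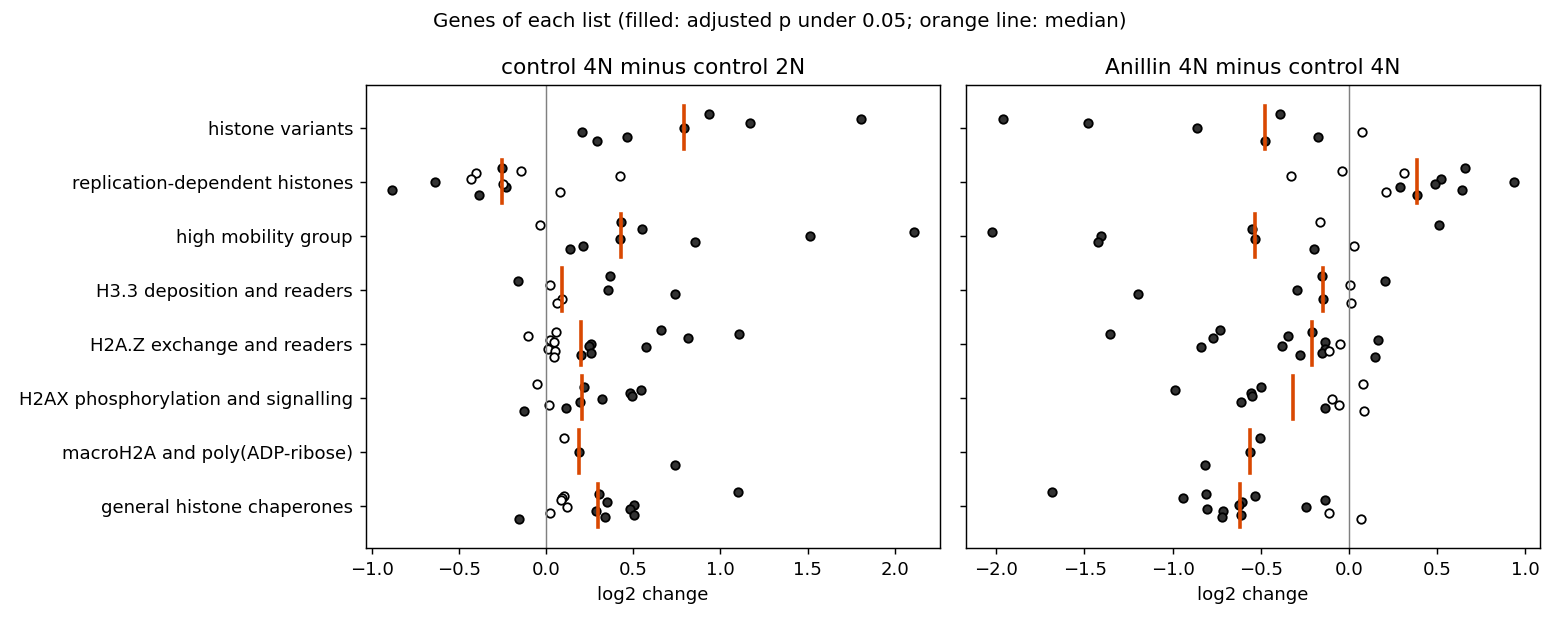
Log2 change of each tested gene of 8 lists in control 4N minus control 2N (left) and Anillin 4N minus control 4N (right). Points are genes, filled where the adjusted p is under 0.05, orange lines are list medians, and the x axes differ in range. The variants have medians of 0.79 and -0.48, and the replication-dependent histones -0.26 and 0.39.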

How the data were processed

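The authors deposited 1 table of RPKM values for 12 RNA-seq libraries. The submitters' processing notes name hg19 as the build, with CASAVA 1.8.2, TopHat2 and edgeR as tools, but not their roles. The annotation, the counter and any use of strand are not stated. From the values, the deposited RPKM divide by genomic span, and whole reads were recovered for all 38571 genes above 0 within 0.01 read (29239 with GENCODE 29 spans, 9332 by common divisor). Gene names and coordinates came from GENCODE 29 on GRCh38, a later build, and from a gene name table; 5435 identifiers had no symbol.

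A gene was tested where 3 or more libraries reached an RPKM of 0.5 (12892 genes), with limma-trend (limma 3.58.1, R 4.3.3) on log2(RPKM + 0.5), with 1 mean per group over 12 libraries. P-values are two-sided, adjusted by Benjamini-Hochberg over all genes, with a threshold of 0.05. Fold changes are on that scale, which understates low genes; a ratio of mean RPKM is called a fold. Limma-voom on recovered reads (at least 10 in at least 3 libraries, 22404 genes, scaled by trimmed means of M values) was an alternative, beside other pseudocounts, scalings, filters and libraries left out. Both fits were also run on simulated data with planted changes, whose outcome is not given here and which did not test the choice of scaling. Tables used pandas 2.3.3, numpy 2.4.6 and scipy 1.17.1, and figures matplotlib 3.10.9. The promoter windows are from RefSeq.

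Libraries were grouped by siRNA and ploidy labels and numbered within groups in order of deposit. All 7 members are described. From each list at most 2 rises and 2 falls with the largest change past the threshold are named per comparison, and for each member the 3 genes with the highest correlation. Members and lists were chosen with earlier results of these data known. Some genes that these rules select are not reported here. A low filter on span-based RPKM removes long genes most.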

Additional observations from a re-analysis of the deposited data

Results flagged for a closer look

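The step from 2N to 4N differed between control and Anillin siRNA, by the interaction test of limma, for 4 of the 7 variants. The interaction was -1.26 for H2AX, -0.73 for H2AZ1, -0.55 for H2AZ2 and -0.39 for H3-3B on the log2(RPKM + 0.5) scale, each past the adjusted threshold. When single libraries were left out it ranged from -1.43 to -1.13 for H2AX (adjusted p = 0.00167 to 0.0157), from -0.84 to -0.58 for H2AZ1 (0.00648 to 0.0477), from -0.60 to -0.48 for H2AZ2 (0.00124 to 0.00962) and from -0.42 to -0.36 for H3-3B (0.00319 to 0.0101). Without replicate 2 of both control groups, a choice made after the data had been seen, the values were -1.29, -0.64, -0.51 and -0.40. The summed levels of G2 and mitosis genes were highest in control 4N and lowest in Anillin 2N, as were the means of H2AX, H2AZ1 and H2AZ2. H3-3B was also highest in control 4N, but its mean was lower in control 2N (39.3 RPKM) than in Anillin 2N (45.8 RPKM). The part of G2 and mitosis genes in these interactions was not tested.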

How the results depend on the processing

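No paired analysis was possible because the labels give no replicate numbers that the groups share. The 2N and 4N cells of an siRNA may come from the same cultures, which the labels do not settle. The fits took all 12 libraries as independent. No reported direction of a called value reversed under any setting run. On recovered reads with voom, where 22404 genes could be tested, the calls over all genes were 10037 in Anillin 4N against control 4N, 917 in Anillin 4N against Anillin 2N, 8178 in control 4N against control 2N, 6425 in Anillin 2N against control 2N, 6223 in Anillin 4N against control 2N and 3299 for the interaction, against 6638, 461, 4782, 3682, 3854 and 2019 as reported. With only the compared groups fitted, Anillin 2N against control 2N gave 2359 calls. Of the 7 variants, those called between Anillin 4N and Anillin 2N went from 0 to 1 with median-of-ratios scaling, 2 with quantile scaling, 4 with voom and 4 with only these groups fitted. Over all genes these settings called 506 of 12892, 503 of 12892, 917 of 22404 and 316 of 11913. In Anillin 4N against control 2N the variants called went from 4 to 7 without replicate 2 of both control groups. Calls over all genes there went from 3854 of 12892 to 3773 of 12541. The cause was not tested in these cases. Leaving out single libraries gave 241 to 315 calls over all genes between Anillin 4N and Anillin 2N, 3153 to 4519 between control 4N and control 2N, and 1093 to 1915 for the interaction, with fewer samples in each fit. The lowest of these were without Anillin 2N replicate 2, and without control 4N replicate 1 for the other pair. The log2 ratio of H3-3A to H3-3B between Anillin 4N and control 4N went from 0.25 to 0.20 with the reads of near-identical copies added. Other scalings shifted the median of all genes by less than 0.1. The variants had from 591 to 24437 reads per library, and in groups whose libraries lay close together, such as MACROH2A1 in Anillin 4N, counting error can be as large as the spread between libraries.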
